A study of Mustela putorius furo with 10 samples.

Results

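The circadian clock genes were followed in peripheral blood mononuclear cells (PBMC), the lymphocytes and monocytes of blood, from control and cold-exposed ferrets. A list of 10 genes was taken, namely CLOCK, PER1, PER2, PER3, CRY1, CRY2, NR1D1, NR1D2, DBP and TEF, and each was matched to the array by the RefSeq ferret gene name of its target sequence. Of these, 7 were found among the named sequences, and all 7 had probes well above background in the PBMC channel on at least 4 of the 10 arrays, so that 7 of 26303 tested genes are described. PER3, NR1D1 and DBP were matched to no sequence by name and were not analysed here.

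The animals were male ferrets of 3 months of age. The control group (6 arrays) was kept at 22 °C and the cold group (4 arrays) at 4 °C for 1 week. Both groups lived under a 12 h light/dark cycle with free access to food and water, were anaesthetised with ketamine and medetomidine, and gave blood from the heart. Individual housing is stated at the end of the description of the cold group, in wording that may or may not cover controls. If controls were housed otherwise, temperature and housing cannot be told apart. The hour of blood collection is not given in the sources used here.

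The circadian clock is a transcriptional loop present in nearly all mammalian cells, blood leukocytes included. CLOCK pairs with BMAL1 to activate the PER and CRY genes, whose proteins return to repress that pair, while the nuclear receptors NR1D1 and NR1D2 (REV-ERB alpha and beta) repress BMAL1 transcription and so form a second arm of the loop. The proline- and acid-rich factors DBP, TEF and HLF carry the rhythm to output genes, and the levels of many of these transcripts change over the day.

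RNA of each ferret was labelled with Cy3 and hybridised against a Cy5 reference pool of PBMC mixed with other tissues, which was common to all arrays. Values are log2 ratios of Cy3 to Cy5, normalised within each array by loess, which sets the typical ratio at each brightness to 0. A value thus places a gene among spots of like brightness, so that a gene was compared between arrays and its level was not ranked against another gene or the pool. Where one gene is subtracted from another within an array, only the shift of that difference between the groups is of use. Across the whole array limma gave no gene an adjusted p under 0.05 (the lowest was 0.0576), whereas 2272 genes had an unadjusted p under 0.01, the threshold of the study's methods, and 6501 had one under 0.05. Each array lay at position 1 or 2 of a slide, and which arrays shared a slide was not examined. The median Cy5 intensity was 44 to 80 on control and 48 to 152 on cold arrays (exact permutation test, two-sided, p = 0.0524). The number of arrays limits the precision of every value.

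Markers of the labelled tissue were present, with T cell (CD3E), B cell (CD79A) and monocyte (CD14) genes above background on every array. The cells had been separated on a Ficoll gradient, a step meant to remove granulocytes and red cells, yet other blood cell markers were measured and differed between the groups. The neutrophil list (6 of 9 genes tested) had summed linear ratios of 7.88 to 13.8 in control and 18.3 to 28.3 in cold. Of its genes 4, namely S100A8, S100A9, MPO and CEBPE, were higher at an unadjusted p under 0.01, as were 5.21% of all genes. The receptor genes CSF3R and CXCR2 of that list did not pass, with changes of 0.40 and 0.82, and of 0.05 and 0.44 in Cy3 alone. The erythroid list (3 of 7 tested) had sums of 3.50 to 8.41 in control and 1.57 to 2.91 in cold, with HBM lower at that threshold. Neither list overlapped between the groups. The T cell list (9 of 9 tested) had sums of 8.77 to 11.0 in control and 5.68 to 9.35 in cold, with LCK alone lower at that threshold in the ratio (3.43% of all genes were) and 6 genes past it in Cy3 alone (9.84% of all genes), the monocyte list (6 of 8) 7.77 to 12.0 and 11.0 to 22.4, with CD14 and VCAN higher, and the platelet list (5 of 7) 4.83 to 14.1 and 8.77 to 20.5, with GP9 and TREML1 higher. Of the 6 monocyte genes 5 had positive changes in the ratio, while CD163 had a negative one of -0.62, which did not pass. In Cy3 alone CD163 changed by 0.49. The B cell list (5 of 7) had sums of 4.60 to 13.1 and 6.85 to 9.52, the NK cell list (4 of 7) 5.13 to 9.33 and 4.26 to 9.62, and neither had a gene past the threshold. Of the defining markers matched, PAX5 alone was not above background. The part of these differences in the results that follow was not tested, and in bulk RNA fewer cells of a type and less RNA per cell cannot be told apart.

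**Figure D1:**
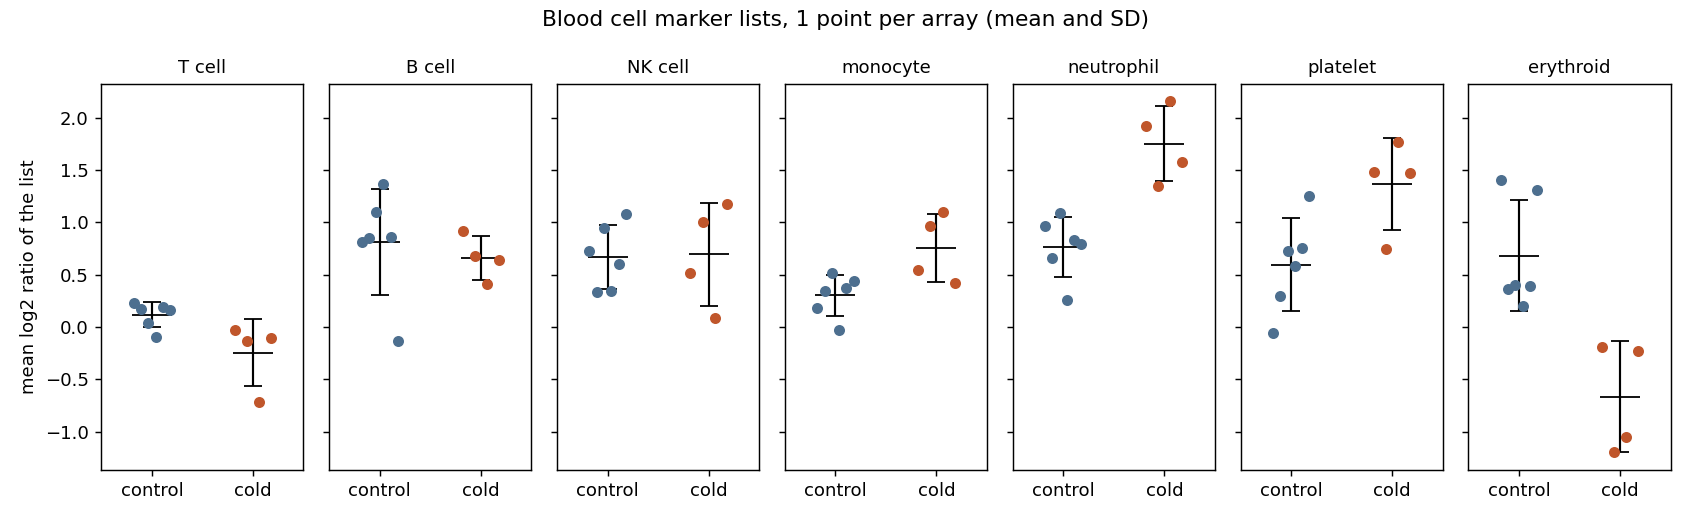
Mean log2 ratio (vertical axis) of the tested genes of 7 blood cell marker lists, 1 point per array, in 6 control and 4 cold arrays, with the group mean and SD as bars. The neutrophil and erythroid lists separate the groups, while the other 5 lists overlap.

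NR1D2 and TEF were lower in cold-exposed ferrets, and they were the only 2 of the 7 clock genes past the unadjusted threshold of 0.01. Of all 26303 genes, 8.64% passed that threshold and 3.43% did so in the lower direction. In both genes each cold array lay below each control array, a separation in the lower direction that 2.15% of all genes showed. CLOCK, PER1, PER2, CRY1 and CRY2 did not pass, and none of the 7 had an adjusted p under 0.05 over the 10 arrays. That call changed when 1 array was left out, for these genes and for many others. NR1D2 and TEF had a limma adjusted p under 0.05 without control replicate 5, where 633 of all 26303 genes had one. NR1D2 also had one without cold replicate 2, where 1272 of all genes did, against 0 over the 10 arrays. At an unadjusted p under 0.05, 5 of the 7 passed, PER1 with a positive and 4 with negative changes, against 24.7% of all genes. The median change of the 7 was -0.26, beside -0.01 over all genes, whereas in the Cy3 channel alone it was -0.0033, beside -0.037 over all genes.

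**Figure D2:**
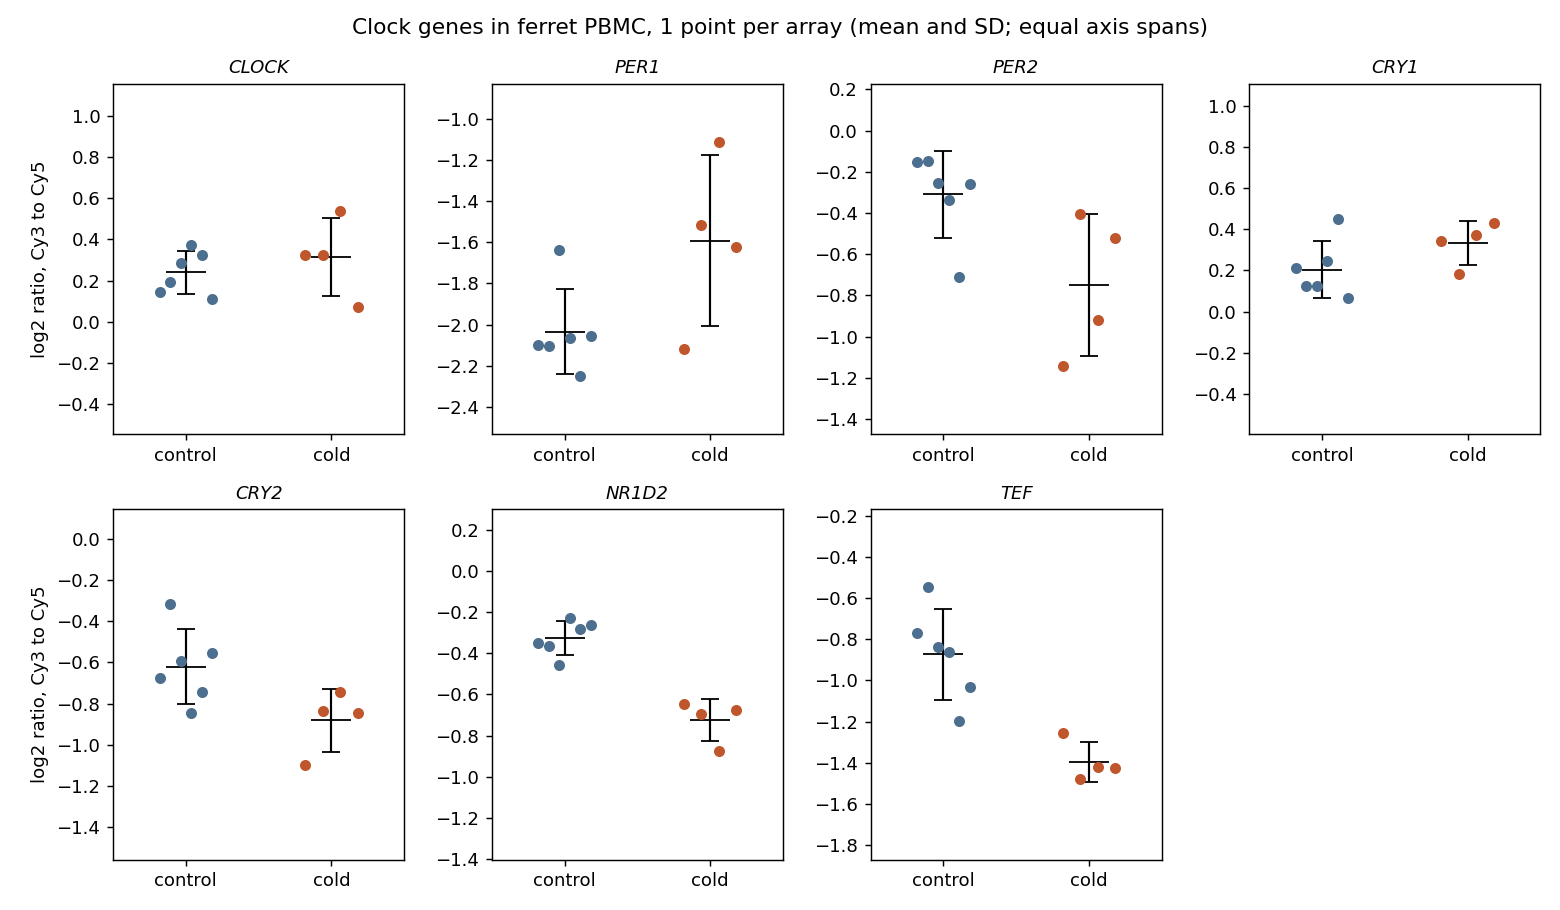
Log2 ratio of Cy3 to Cy5 (vertical axes, all of equal span) of the 7 measured clock genes, 1 point per array, in 6 control and 4 cold arrays, with the mean and SD of each group as bars. NR1D2 and TEF show no overlap, from -0.46 to -0.23 against -0.87 to -0.65 for NR1D2, and the other 5 genes overlap.

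CLOCK, the activator of the loop, was measured by 16 probes on 4 target sequences. Its log2 ratio was lowest at 0.11, had a median of 0.24 and was highest at 0.37 in control, and read 0.32, 0.33, 0.54 and 0.07 in cold replicates 1 to 4. The cold arrays thus held both the highest and the lowest value of the 10. The change of 0.08 had a 95% confidence interval of -0.14 to 0.29 (limma, adjusted p = 0.670, exact permutation p = 0.457), and its sign turned when ratios were centred on each array's median (-0.13) or taken from the scanner software's processed intensities (-0.17). BMAL1, the partner of CLOCK, was represented by 12 probes, of which none was kept and each was well above background on at most 1 array. No change of BMAL1 can therefore be given, and it was not detectable at this signal.

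The PER genes, which code for repressors of CLOCK and BMAL1, had changes of opposite sign, neither of which passed the threshold. PER1, which is also known as an immediate responder to glucocorticoid and cAMP signals, had log2 ratios of -2.25 (lowest), -2.08 (median) and -1.64 (highest) in control. In cold, PER1 read -2.12, -1.52, -1.11 and -1.62. Cold replicates 2, 3 and 4 lay above every control array, while cold replicate 1 lay among the lower control values. The change of 0.44 (SE 0.18) corresponded to 1.36-fold, and all 4 probes had higher means in cold, by 0.25 to 0.67. It missed the unadjusted threshold (limma p = 0.0289, adjusted p = 0.161), with an exact permutation p of 0.0810. It passed the threshold without cold replicate 1, where the change was 0.62, and was smaller without cold replicate 3, where the change was 0.28 and did not pass. In the Cy3 channel alone, quantile normalised between arrays and without the reference, PER1 was 0.54 higher in cold (limma p = 0.00499, adjusted p = 0.0772, exact p = 0.0143), and 9.84% of all genes passed the unadjusted threshold on that scale. The deposited value table gave a change of 0.03, and median centring turned the sign (-0.53), while that setting also moved the median of all genes to -0.43.

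PER2 had log2 ratios of -0.71 (lowest), -0.26 (median) and -0.15 (highest) in control and of -1.14, -0.41, -0.92 and -0.52 in cold. Control replicate 5, at -0.71, lay below cold replicates 2 and 4, and the remaining control arrays lay above all cold arrays. The change of -0.44 (SE 0.16) did not pass the threshold (limma p = 0.0183, adjusted p = 0.136, exact permutation p = 0.0333), though all 4 probes had lower means in cold, by values between -0.52 and -0.36. Without control replicate 5 the change was -0.52, and without cold replicate 2 it was -0.55, and in both cases it passed. The difference was not seen in Cy3 alone, where the change of PER2 was 0.00 with a 95% confidence interval of -0.27 to 0.26. The reference channel of its probes read 0.10 higher on cold arrays (exact permutation p = 0.0429), and 56.7% of its spots were well above background in Cy5. That channel also read 0.08 higher for CLOCK and 0.08 higher for CRY1, whose ratios had positive changes. Without cold replicates 1 and 3, which had the brightest reference channel, the change of PER2 was -0.15 and did not pass, and in the deposited value table it was -0.13.

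Set against each other within an array, the log2 ratio of PER1 less that of PER2 averaged -1.72 ± 0.23 (SD, n = 6) on control arrays and -0.85 ± 0.44 (SD, n = 4) on cold arrays. The control values ran from -1.96 to -1.38 and the cold values from -1.11 to -0.19, so the groups did not overlap, and the group difference was 0.88. In Cy3 alone the group difference was 0.55 and the groups overlapped, from 3.84 to 4.40 in control and from 4.22 to 5.16 in cold. This pair was chosen after its values were seen, and the difference is a description without a test. For CRY1 less CRY2, formed in the same way, the group difference was 0.39 with overlapping groups, and 0.18 in Cy3 alone.

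**Figure D3:**
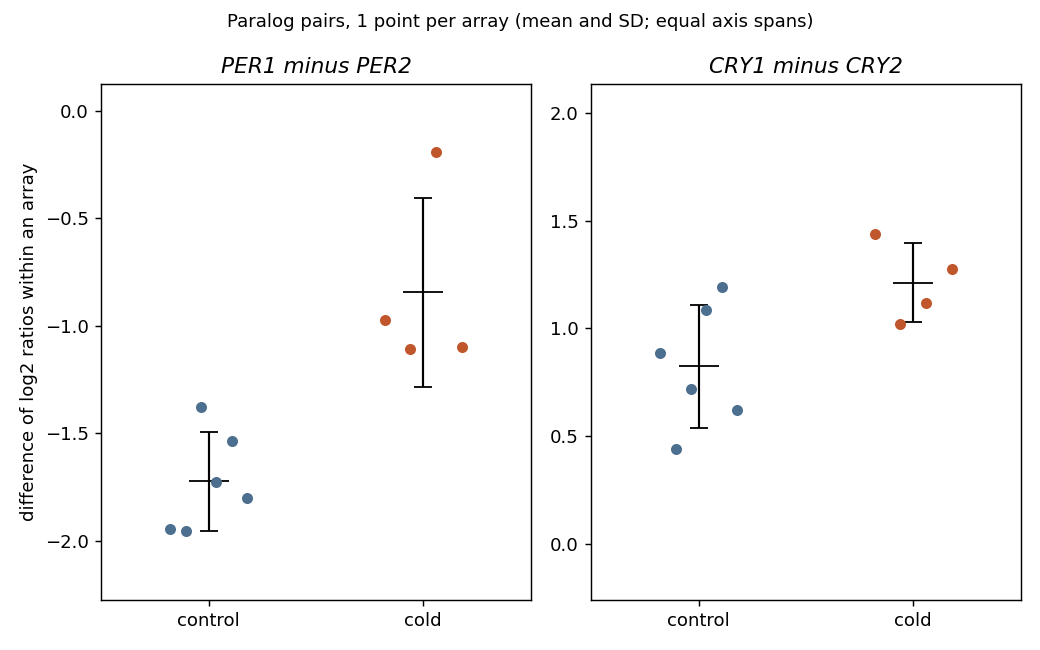
Difference of log2 ratios within each array (vertical axes of equal span) for PER1 minus PER2 and CRY1 minus CRY2, 1 point per array, in 6 control and 4 cold arrays, with mean and SD as bars. PER1 minus PER2 ran from -1.96 to -1.38 on control arrays and from -1.11 to -0.19 on cold arrays, whereas CRY1 minus CRY2 overlapped.

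The CRY genes code for cryptochromes, the partners of the PER proteins in repression. CRY1 had log2 ratios of 0.06 (lowest), 0.17 (median) and 0.45 (highest) in control and of 0.34, 0.18, 0.37 and 0.43 in cold, so that all 4 cold values fell inside the control range. Its change was 0.13 with a 95% confidence interval of -0.07 to 0.33 (limma, adjusted p = 0.398, exact permutation p = 0.157), and the sign turned under median centring (-0.14) and with processed intensities (-0.19). CRY2 had log2 ratios of -0.84 (lowest), -0.63 (median) and -0.31 (highest) in control and of -1.10, -0.83, -0.75 and -0.84 in cold. The CRY2 groups overlapped, and 7 of its 8 probes had lower means in cold. The change of -0.26 (95% confidence interval -0.50 to -0.02) did not pass the threshold (limma p = 0.0389, adjusted p = 0.181, exact permutation p = 0.0333), and its size varied with the processing. It was -0.08 in Cy3 alone (95% confidence interval -0.33 to 0.17), -0.53 in the deposited value table and -0.97 under median centring, where the median of all genes was -0.43, and passed the threshold in none of these.

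NR1D2, the repressor of the second arm of the loop, was measured by 4 probes on 1 target sequence. Its log2 ratios were -0.46 (lowest), -0.32 (median) and -0.23 (highest) in control. In cold they were -0.65, -0.69, -0.87 and -0.68. Every cold array lay below the lowest control array, and the spread within each group was small, with an SD of 0.08 in control and 0.10 in cold. The change of -0.40 (SE 0.08) corresponded to a 1.32-fold lower ratio, with limma p = 0.000295, adjusted p = 0.0638 and an exact permutation p of 0.00476. The last is the smallest that 210 splits of the arrays can give. All 4 probes were lower in cold, by values between -0.57 and -0.16, although none of them separated the groups on its own. It passed the unadjusted threshold without each array in turn, with changes between -0.42 and -0.35.

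NR1D2 did not pass in Cy3 alone, a setting that leaves out the reference and also replaces loess by quantile normalisation. There the change was -0.30 with a 95% confidence interval of -0.70 to 0.10 (limma p = 0.127, exact permutation p = 0.181). The log2 intensities ran from 7.67 to 8.44 in control and from 7.38 to 8.20 in cold, which overlap. The Cy5 channel of the same probes differed by -0.03 (exact permutation p = 0.548). The change had an SE of 0.18 in Cy3 alone, against 0.08 in the ratio. Cy3 was well above background on 90.0% of the spots of NR1D2 and Cy5 on 68.8%. The call was also lost in the deposited value table (-0.31) and with processed intensities (-0.57), and in both the direction was kept.

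TEF, an output factor of the clock that binds D-box elements, was the most densely measured clock gene beside CLOCK, with 16 probes on 4 target sequences. Its log2 ratios were -1.19 (lowest), -0.85 (median) and -0.55 (highest) in control. In cold they were -1.26, -1.48, -1.42 and -1.43. The cold arrays, with an SD of 0.10, all lay below the lowest control array, which was control replicate 5. The change of -0.52 (SE 0.12) corresponded to a 1.44-fold lower ratio (limma p = 0.000969, adjusted p = 0.0734, exact permutation p = 0.00952). All 16 probes were lower in cold, by values between -0.65 and -0.36, and 10 of them separated the groups. The 4 target sequences, which belong to the same gene and are not independent, each passed the unadjusted threshold.

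Both channels of TEF were bright, with Cy3 and Cy5 well above background on 100% of its spots. In Cy3 alone TEF was lower in cold by values close to those of the ratio, with a change of -0.48 (SE 0.14, limma p = 0.00513, adjusted p = 0.0779, exact permutation p = 0.0190). The log2 intensities of Cy3 ran from 11.1 to 11.7 in control and from 10.8 to 11.2 in cold, so a slight overlap appeared on that scale. The reference channel differed by -0.02 (exact permutation p = 0.619). TEF passed the threshold without each array in turn, with changes between -0.59 and -0.46, and missed it with processed intensities (-0.47).

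The position on the slide was also examined, since position 1 held 4 control and 2 cold arrays and position 2 held 2 and 2. NR1D2 changed by -0.37 within position 1 and by -0.40 within position 2, and TEF by -0.57 and -0.41. Within position 2, with its 4 arrays, neither passed the threshold. PER1 changed by 0.26 and 0.57, PER2 by -0.55 and -0.24, CRY1 by 0.10 and 0.11 and CRY2 by -0.37 and -0.13, in each case in the same direction in both positions, whereas CLOCK changed by 0.12 and 0.00. Without cold replicates 1 and 3, NR1D2 changed by -0.36 and TEF by -0.58, and both passed. Over 23 alternative settings the change ran from -0.65 to -0.30 for NR1D2 and from -1.47 to -0.46 for TEF, negative in each, with the most negative values under median centring, where the median of all genes was -0.43. In the deposited value table, where the median of all genes was 0.012, TEF changed by -0.96 and passed.

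**Figure D4:**
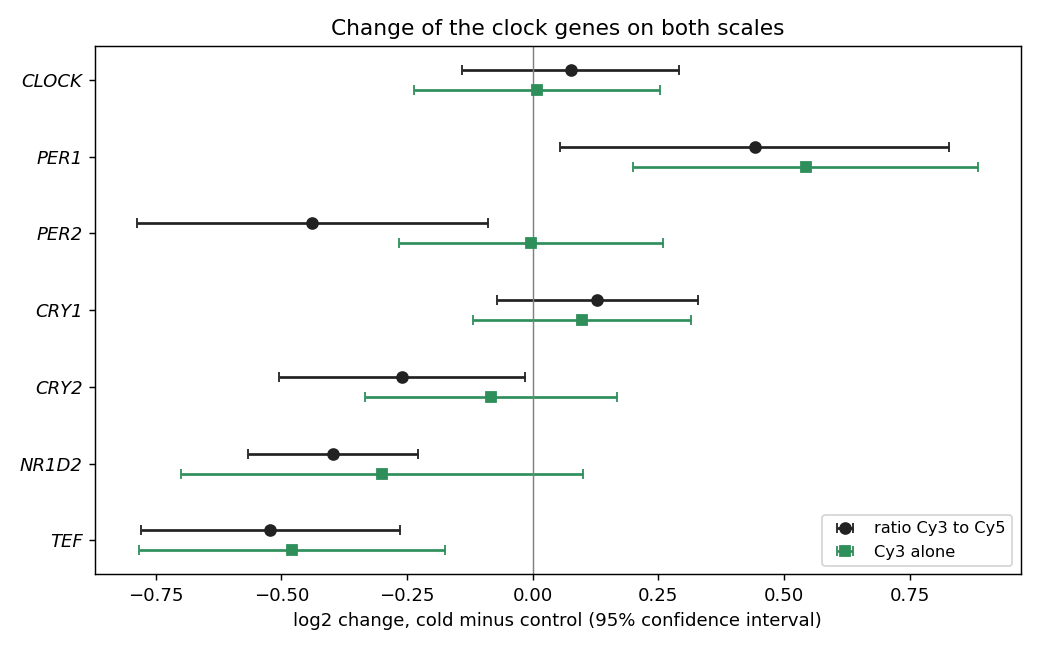
Log2 change, cold minus control (horizontal axis), of the 7 clock genes with its 95% confidence interval, from the ratio of Cy3 to Cy5 (circles) and from Cy3 alone (squares). TEF lay below 0 and PER1 above 0 on both scales, NR1D2 was below 0 with a wider interval in Cy3 alone (-0.70 to 0.10), and PER2 was at 0.00 in Cy3 alone.

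Other genes of the clock pathway were taken from a list of 30 regulators, of which 17 were tested, and a list of 8 output genes, of which 3 were tested. None of these 20 genes passed the unadjusted threshold of 0.01 with limma, nor with the methods' t-test, and 4 had a limma p under 0.05. Of all genes 8.64% and 24.7% passed these thresholds with limma, so neither count exceeded the background. Among the 17 regulators 12 had negative and 5 positive changes, with a median of -0.11, and this sign turned in Cy3 alone, where the median was 0.080. The 3 output genes, WEE1, KLF10 and KLF11, had positive changes with a median of 0.22. In Cy3 alone 2 of the 20 genes passed, beside 9.84% of all genes, and both are named after their values were seen. HLF, a relative of TEF, was 0.84 higher there (limma p = 0.00207, exact permutation p = 0.019) and changed by 0.25 in the ratio, while BTRC, a component of the ubiquitin ligase that marks PER proteins for degradation, was lower by -0.23 (limma p = 0.00665, exact permutation p = 0.00476) and changed by -0.12 in the ratio.

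NPAS2, which can take the place of CLOCK, had a change of -0.29 (limma p = 0.0428, exact permutation p = 0.0571), and BMAL2 one of -0.57 with a wide spread (SE 0.32, limma p = 0.102, exact permutation p = 0.162). Both signs turned in Cy3 alone, where NPAS2 changed by 0.080 and BMAL2 by 0.096. BHLHE40, a repressor that competes at E-box elements, had a change of 0.30 (limma p = 0.0281, exact permutation p = 0.0429). The remaining genes with p under 0.05 were FBXW11, related to BTRC, at 0.36 and NONO, a partner of the PER proteins, at -0.28. RORA, NFIL3, CSNK1D and CSNK1E were matched to no sequence by name and were not analysed here, and TIMELESS and USP2 were not above background.

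**Figure D5:**
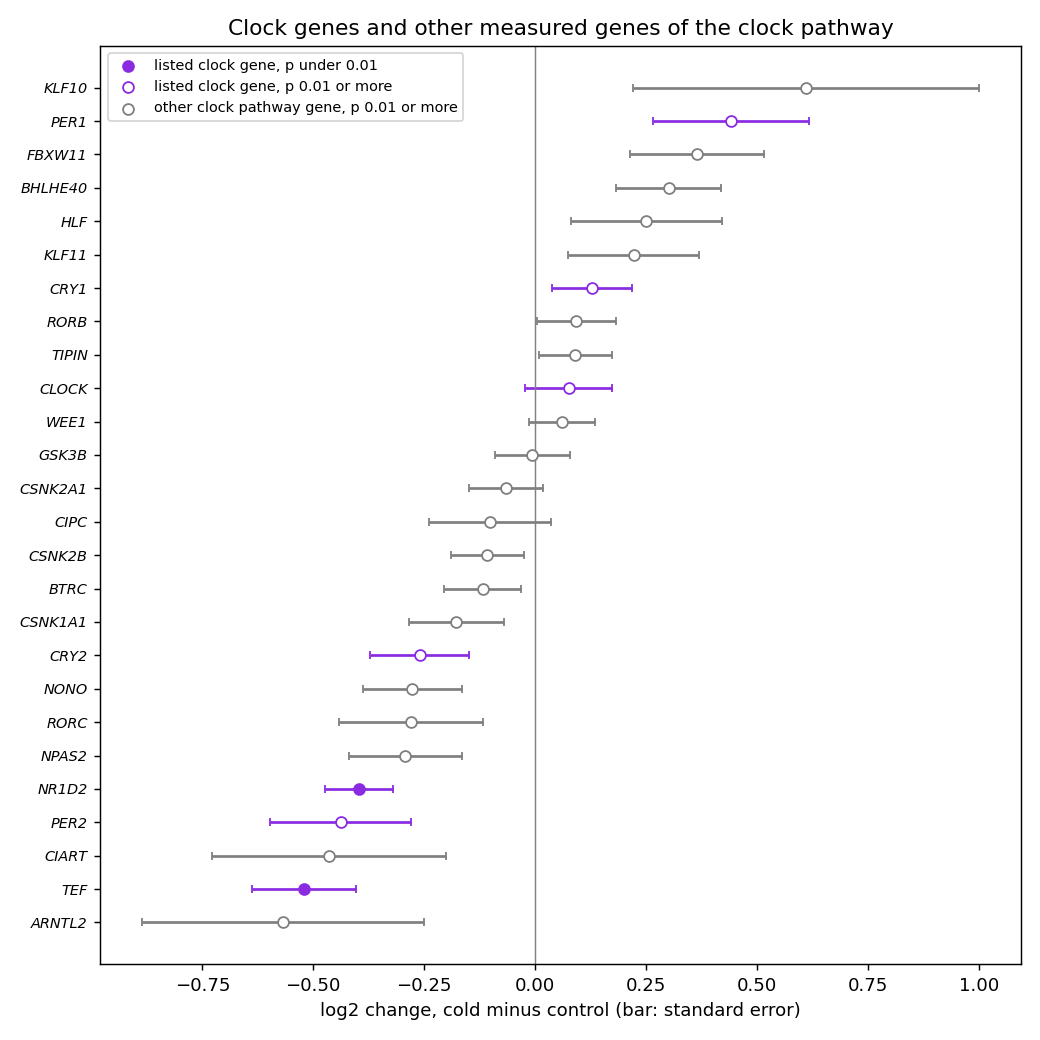
Log2 change, cold minus control (horizontal axis), with its standard error, of the 7 clock genes (purple) and of 19 other genes of the clock pathway (grey), ordered by change. Filled points have an unadjusted limma p under 0.01, which holds for NR1D2 and TEF.

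Signals known to reset peripheral clocks were read from 3 further lists. Of 11 tested glucocorticoid-responsive genes 8 had positive and 3 negative changes, with a median of 0.52, and 6 had a limma p under 0.05, against 24.7% of all genes. Of these 6, 5 had positive changes, and NR3C1, the gene of the glucocorticoid receptor itself, had a negative one of -0.29. At the threshold of 0.01, which 8.64% of all genes passed, the count was 1 in the ratio and 2 in Cy3 alone (IL1R2 and FKBP5), against 9.84% of all genes there. The 1 gene in the ratio was IL1R2, a decoy receptor for interleukin 1 that myeloid cells express, with log2 ratios of -2.69 to -1.34 in control and -1.75 to 0.53 in cold, and a change of 1.31 (SE 0.41, limma p = 0.00816, exact permutation p = 0.019). FKBP5, a co-chaperone of the glucocorticoid receptor, had a change of 0.50 (limma p = 0.0303, exact permutation p = 0.0619), and TSC22D3, also called GILZ, one of 0.53 (limma p = 0.0164, exact permutation p = 0.0238). The higher sums of the neutrophil list stand beside these values. So do those of the monocyte list, which overlapped between the groups and in which CD163 had a negative change in the ratio. The part of either list was not tested. Of 7 genes of cAMP and CREB signalling none passed with limma, against 8.64% of all genes, and 3 had a p under 0.05, against 24.7%, with positive changes of CRTC2 and JUNB and a negative one of CREB1. Their median change was 0.19.

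Of 2 temperature-responsive genes tested, RBM3, a cold-inducible RNA-binding protein, was higher in cold, and HSF1, the heat shock transcription factor, had a change of -0.09 (exact permutation p = 0.543). The log2 ratio of RBM3 was 0.15 (lowest), 0.24 (median) and 0.47 (highest) in control and 0.40 to 0.96 in cold, a slight overlap. The change of 0.41 (SE 0.12) passed the unadjusted threshold, as 5.21% of all genes did in the higher direction (limma p = 0.00585, adjusted p = 0.0997, exact permutation p = 0.00952), and in Cy3 alone it was 0.52 (limma p = 0.00222). CIRBP was matched to no sequence by name and was not analysed here.

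The genes whose log2 ratios over the 10 arrays were most like those of a clock gene were searched among 8340 named genes, after each gene was centred on its own mean. For NR1D2 these were CUNH3orf38, ZNF576 and KDM5B, with root mean square differences of 0.06, 0.06 and 0.08 against a spread of NR1D2 itself of 0.21. For TEF they were PPP2R1A, NGRN and TCEA3, at 0.13, 0.13 and 0.14 against 0.30, and for PER2 CIBAR1, ALCAM and NBEAL1, at 0.06, 0.07 and 0.07 against 0.32. None of these is a member of the clock lists.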

How the data were processed

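The authors deposited Agilent Feature Extraction (10.7.3.1) spot intensities of both channels for each array, not normalised, and a table with log2 values for the target sequences, which served as an alternative. Median spot intensities were used. The normexp method of limma 3.58.1 (R 4.3.3) corrected the background with an offset of 50, and ratios were normalised by loess (span 0.3, 4 iterations). Spots of a probe and then probes of a gene were averaged. Probes needed Cy3 well above background, for a share of 0.5 or more of their spots, on 4 or more arrays, leaving 111051 of 181312 probes. Symbols came from the RefSeq gene table, and 9276 of the 26303 genes tested had one. Groups were compared with lmFit and eBayes and Benjamini-Hochberg adjustment over all genes, and single genes by two-sided exact permutation. By a preset rule, all listed clock genes, a set of pathway genes, and pathway genes with p under 0.01 were named. Further genes were named outside that rule, among them FBXW11, NONO, NR3C1, CRTC2, JUNB and CREB1 for a limma p under 0.05. Members and lists were chosen with earlier results of these data known. On simulated data with 26303 genes, limma was checked for recovery of known changes. Alternatives numbered 23, and 3 more were chosen after seeing the data. Each array held a separate ferret. Counts of pathway genes include 1 gene whose own values are not reported here.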

Additional observations from a re-analysis of the deposited data

Results flagged for a closer look

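In 2 of the 14 groups of values (7 clock genes in 2 groups) 1 array stood apart from the others by a Dixon gap test at the 95% level, which chance alone flags in about 1 of 20 groups. These were control replicate 3 for PER1, at a log2 ratio of -1.64 against a control median of -2.08, and control replicate 5 for PER2, at -0.71 against a control median of -0.26.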

How the results depend on the processing

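In the ratio 2 clock genes passed the unadjusted threshold, beside 8.64% of all genes. The count was 0 with processed intensities (5.72% of all genes) and within slide position 2 (1.54%), 1 (TEF) in the deposited table (4.16%) and 3 (with PER2) under array weights (11%). None of the other pathway genes passed, against 2 in Cy3 alone. With processed intensities CLOCK changed by -0.17, CRY1 by -0.19, NR1D2 by -0.57 and TEF by -0.47. Median centring gave CLOCK -0.13, PER1 -0.53 and CRY1 -0.14, with the median of all genes at -0.43 (-0.10 with processed intensities). Cy3 alone gave PER1 0.54 and NR1D2 -0.30, the deposited table NR1D2 -0.31, and array weights PER2 -0.48, which passed. Within slide position 2 CLOCK changed by -0.0010, NR1D2 by -0.40 and TEF by -0.41, and without cold replicates 1 and 3 CLOCK changed by -0.041. The cause of these differences was not tested.

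Leaving out each array in turn gave 2 to 3 clock genes and 0 to 1 other pathway genes past the threshold (BHLHE40 without cold replicate 1, NONO without cold replicate 2). The share of all genes past it in these fits ran from 4.85% (without cold replicate 3) to 12.9% (without cold replicate 2). The changes ran from 0.00 to 0.16 for CLOCK, 0.28 to 0.62 for PER1, -0.55 to -0.31 for PER2, 0.10 to 0.18 for CRY1, -0.31 to -0.19 for CRY2, -0.42 to -0.35 for NR1D2 and -0.59 to -0.46 for TEF. Samples were treated as unpaired. Deviations of control and cold samples of the same replicate number had correlations of -0.30, 0.54, 0.10 and -0.19. Whether such samples shared a batch cannot be told from these values. With the replicate block 2 clock genes and 0 other pathway genes passed, beside 9.35% of all genes, with NR1D2 at -0.37 and TEF at -0.64. Of all genes past the threshold 39.7% were lower in cold, against 57.5% with processed intensities, 81.5% under median centring and 53.8% in the deposited table. With 2272 genes past it in the main setting, 1093 passed in the deposited table, 1163 under median centring and 1505 with processed intensities. Without control replicate 5, 3352 passed (56.4% lower) and 633, NR1D2 and TEF among them, had an adjusted p under 0.05. Without cold replicate 2 these counts were 3386 and 1272, the latter with NR1D2. In Cy3 alone 741 genes had an adjusted p under 0.05, none of them a measured clock gene. Cy5 was well above background on 38.4% of the spots of CLOCK and 48.8% of those of CRY1.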
